A study of Macaca mulatta with 24 samples.

Results

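Whole blood of rhesus macaques 7 days after 4 Gy total body irradiation was compared with blood taken before irradiation. Equal replicate numbers were taken to mark the same animal. The comparison uses 14 of the 24 arrays of the series, 7 from day 7 and 7 from before irradiation, chosen by their group label. The other arrays, 4 from day 3 and 6 from day 5, enter only where their levels are set beside those of day 7. The animals were adult Macaca mulatta of Chinese origin, 4 males and 3 females in each group, with no transgene and no other agent. The pre-irradiation group is labelled dose 0 and day 0, and the day 7 group 4 Gy and day 7. The methods put the pre-irradiation sampling several days before exposure and name a cobalt gamma source, whereas the sample labels name X-rays. Animals were bled at every time point, and no sham-irradiated animal is among the arrays analysed here, so irradiation, elapsed time and repeated bleeding cannot be told apart.

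Ionizing radiation breaks DNA and activates the transcription factor p53, which switches on genes for cell cycle arrest, repair and death. Among blood cells, B lymphocytes are very sensitive to radiation, and dividing precursors in the bone marrow stop supplying reticulocytes, the young red cells that still carry RNA. Whole blood RNA is a mixture of all circulating cells, so fewer cells of a type and less RNA per cell cannot be told apart in any result below.

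Each gene was read by short DNA probes on an Agilent rhesus array. The paper's methods name a human Agilent array, whereas the scanner output is of a rhesus design. The probes of 3 genes on which the comparison turns are shown so that a reader can see what was hybridized. EDA2R had the largest fitted rise among the genes named, ACSL6 is among the 12 largest falls, and FCRLA is a B-cell gene that fell. Each probe has 60 bases, given 5′ to 3′ as in the scanner output with positions on build rheMac2, and the capitals mark its last 3 bases, which read as a stop codon. The EDA2R probe lies at chrX:65480691-65480750 on the minus strand and the ACSL6 probe at chr6:128381855-128381914 on the minus strand. The FCRLA probe lies at chr1:140232235-140232294 on the plus strand.
EDA2R: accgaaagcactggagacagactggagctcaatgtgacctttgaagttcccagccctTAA
ACSL6: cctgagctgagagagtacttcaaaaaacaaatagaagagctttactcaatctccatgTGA
FCRLA: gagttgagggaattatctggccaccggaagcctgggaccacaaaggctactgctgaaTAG

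At day 7 more genes were lower than higher. Of 11011 genes with a symbol, each read by its brightest probe, 290 were higher (2.63%) and 799 lower (7.26%) than before irradiation, 1089 in all (9.89%). Over all 27132 probes tested, 2951 changed (10.9%), of which 977 were higher (3.6%) and 1974 lower (7.28%). The test was limma with a Benjamini-Hochberg adjusted p under 0.005 over all probes, two-sided, and every adjusted p below comes from that fit unless another setting is named. Signals are scaled fluorescence of the scanner in arbitrary units, comparable between arrays for 1 probe but not between probes. In 880 genes (7.99%) all 7 day 7 arrays lay on 1 side of all 7 pre-irradiation arrays, above them in 222 and below them in 658. Of the called genes, 1016 moved the same way in all 7 animals. The median log2 change over all genes was −0.01. Quantile normalization, another scaling, called 1160 probes higher and 1366 lower, which raised the share of higher calls from 33.1% to 45.9%. Testing probes of any brightness called 1825 higher and 947 lower. A normexp background correction left 342 called probes, and of the 105 called genes singled out by the naming rule 65 were then no longer called. Leaving out 1 animal gave 1656 called probes without animal 1, 1704 without animal 7, 1877 without animal 2 and 2083 to 2577 without any of the others.

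**Figure D1:**
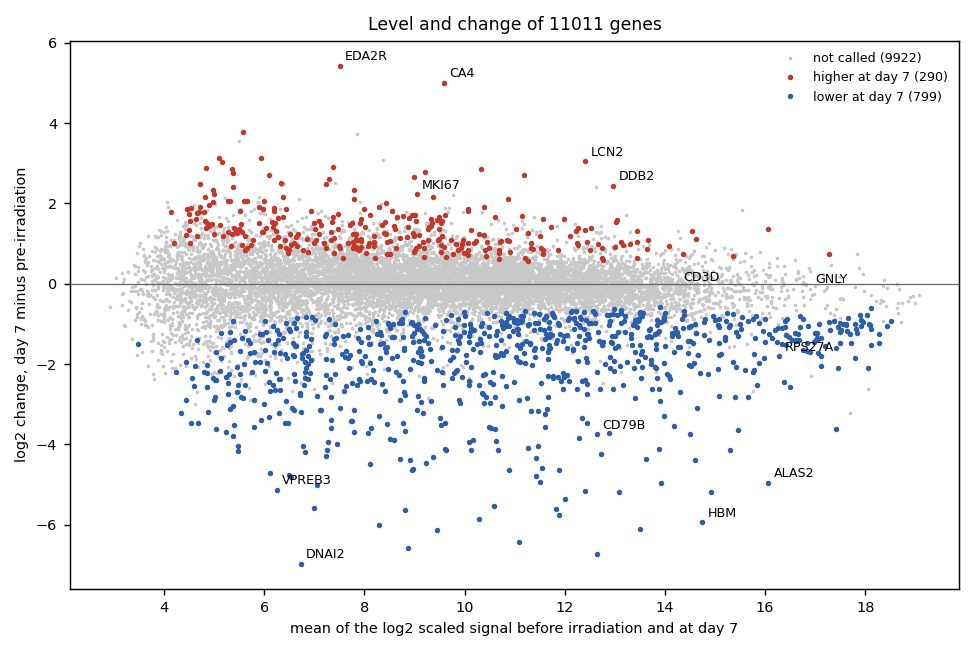
Each point is 1 of the 11011 genes, with the mean log2 scaled signal of both groups on the horizontal axis and the log2 change from pre-irradiation to day 7 on the vertical axis. Red marks the 290 genes higher at day 7 and blue the 799 lower, and the deepest falls reach below a log2 change of −6 while only EDA2R and CA4 rise above 5.

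Between 49.6% and 53.1% of probes were well above background on the pre-irradiation arrays, and between 48.3% and 60.9% at day 7. Day 7 replicate 2 stood apart, with the lowest median processed signal of the 14 arrays (16.7) and the lowest share of probes above background. Without it 2692 probes were called, 845 higher and 1847 lower. The 2 arrays of an animal shared a slide. As a check of the tissue label, marker genes of B cells, T cells, NK cells, monocytes, neutrophils, platelets and red cells were detected before irradiation, other than the platelet gene GP1BA, which was well above background on none of those arrays. ALB, the liver albumin gene, was well above background on none of the pre-irradiation arrays and 1 of the day 7 arrays, KRT5, a keratin of epithelium, on 1 and 1, and MYH7, a heart muscle myosin, on 2 and 1.

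The largest rises and falls were ranked among called genes that were well above background on all 7 arrays of the brighter group. Their day 7 arrays also had to lie on 1 side of all pre-irradiation arrays, so lack of overlap was a condition of listing. Among these, the 12 largest rises were those of EDA2R, CA4, TNFRSF10B, LYVE1, CLEC4D, LCN2, PHLDA3, DHRS2, P3H2, IL18RAP, ATP9A and HK3. Rank and fold here follow the fitted values, and where only some arrays of the dimmer group were well above background the fold rests in part on signals near background. EDA2R, a receptor of the tumour necrosis factor family and a p53 target, had signals of 9.41 to 61.2 before irradiation (median 29.9) and 603 to 1978 at day 7 (median 1131). All 7 day 7 arrays lay far above all pre-irradiation arrays. The log2 change was 5.43 ± 0.37 (SE, n = 7 a group), a fitted 43.1-fold rise (limma adjusted p = 5.29e-07), with a pre-irradiation signal well above background on only 1 of 7 arrays. CA4, a membrane-bound carbonic anhydrase, rose 32.3-fold (log2 5.01 ± 0.66), from a median of 114 to 6775. Its groups did not overlap, but the day 7 arrays ran from 507 to 25352.

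CLEC4D, a C-type lectin receptor of myeloid cells, rose at least 4.41-fold, since no pre-irradiation array was well above background. LCN2, the neutrophil granule protein lipocalin, ran from 886 to 3195 before irradiation and from 4659 to 76865 at day 7. That is an 8.30-fold rise without overlap, and its other probe moved by 3.69 on the log2 scale. IL18RAP, a subunit of the interleukin-18 receptor, rose 7.2-fold. HK3, the hexokinase of myeloid cells, rose 6.53-fold. ATP9A, a phospholipid flippase, rose 6.86-fold, a call that was lost without animal 1 or animal 7 (limma adjusted p = 0.00556 and 0.00554). DHRS2, a short-chain dehydrogenase, rose at least 1.98-fold and P3H2, a collagen prolyl hydroxylase, at least 2.83-fold. Both had no pre-irradiation array well above background and all 7 day 7 arrays above it. With the normexp background CLEC4D, DHRS2 and P3H2 were not called (limma adjusted p = 0.1, 0.476 and 0.391), nor was LCN2 (limma adjusted p = 0.00975).

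**Figure D2:**
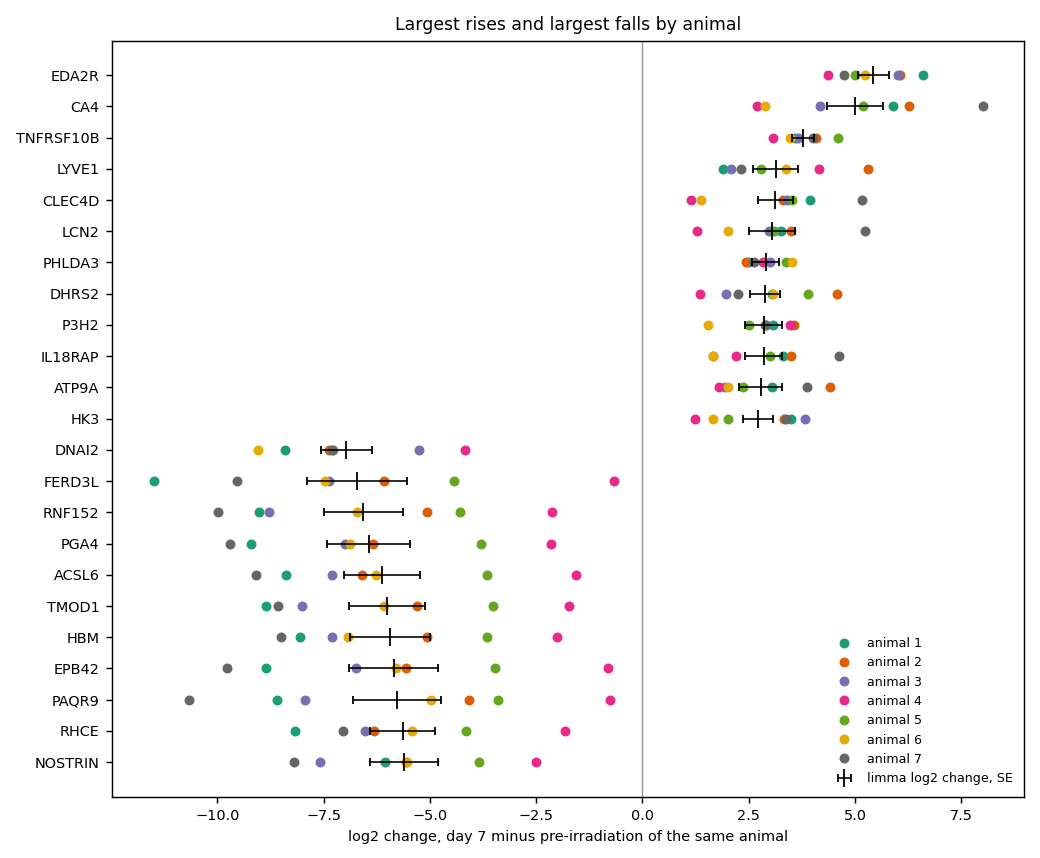
Log2 change of each animal, day 7 minus pre-irradiation, for the 12 largest rises and 11 of the 12 largest falls among called genes whose groups did not overlap and whose brighter group was well above background on all 7 arrays. Coloured points are the 7 animals, and black bars give the limma log2 change with its SE. In all 11 falls animal 4 had the smallest change, and in 8 of the 12 rises it did as well.

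The largest falls were deeper than the largest rises. ACSL6, an acyl-CoA synthetase whose probe is shown above, ran from 2984 to 9100 before irradiation (median 6427) and from 10.1 to 1150 at day 7 (median 82.5), where 3 of 7 arrays were well above background. By the rule of selection, no day 7 array reached the lowest pre-irradiation array. The fitted fall was 70-fold (log2 −6.13 ± 0.90, limma adjusted p = 0.000207).

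TMOD1, which caps the actin filaments of the red cell skeleton, fell by a fitted 64.4-fold, with 2 of 7 day 7 arrays well above background. HBM, a globin of the alpha cluster, fell 61.2-fold. EPB42 and RHCE, both proteins of the red cell membrane, fell by a fitted 57.8-fold and 49.9-fold, with 5 and 3 of 7 day 7 arrays well above background. The RHCE probe may also read related RH sequences. DNAI2, an axonemal dynein chain, had the largest fitted fall, from a median of 1499 to 8.84. The fitted fold was 126 (limma adjusted p = 4.54e-06), with 1 of 7 day 7 arrays well above background.

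The remaining genes among the largest falls have other known roles. FERD3L, a transcription factor of neural development, fell 106-fold, from 29485 to 329254 before irradiation to 57.3 to 18513 at day 7. The ubiquitin ligase gene RNF152 fell by a fitted 95.3-fold, with 4 of 7 day 7 arrays well above background. NOSTRIN, which controls the trafficking of endothelial nitric oxide synthase, fell 48.8-fold. PAQR9, a membrane progestin receptor, fell 54.6-fold, a call lost without animal 1 or animal 3 (limma adjusted p = 0.00661 and 0.0055). PGA4, a pepsinogen, fell 86.7-fold by its brightest probe. Its 4 probes disagreed, 2 of them being called lower and another having a log2 change of 1.07 that was not called. In each of these genes, as in the red cell genes above, the smallest change was that of animal 4.

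Part of the genes switched on by p53 rose. Of 36 listed p53 targets 25 were tested, and 11 rose (44%, against 2.63% of all genes) while none fell. The 11 include TNFRSF10B and EDA2R, with 0 and 1 of 7 pre-irradiation arrays well above background. Both passed the brightness filter only with the help of arrays after irradiation, so the comparison with all genes is a description only. The median log2 change of the 25 was 0.84, against −0.01 over all genes, and the median of the list lay between 0.52 and 1.24 in the 7 animals. DDB2, a DNA damage recognition protein of nucleotide excision repair, ran from 2851 to 4085 before irradiation (median 3422) and from 13034 to 25003 at day 7 (median 19008). The groups were far apart, and the rise was 5.42-fold (log2 2.44 ± 0.16, limma adjusted p = 3.29e-07). PHLDA3, an inhibitor of Akt signaling, rose 7.44-fold without overlap (limma adjusted p = 2.52e-05). TNFRSF10B, the death receptor DR5, rose at least 4.5-fold, with no pre-irradiation array and all 7 day 7 arrays well above background. ZMAT3, an RNA-binding protein, rose 3.5-fold.

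CDKN1A, the cyclin-dependent kinase inhibitor p21, ran from 2544 to 4664 before irradiation and from 4509 to 9367 at day 7. The groups touched, with 6 of 7 day 7 arrays above all pre-irradiation arrays. The rise was 2.01-fold (log2 1.01 ± 0.18, limma adjusted p = 0.000935) and lost its call without animal 7 (limma adjusted p = 0.00523). FAS, another death receptor, rose 2.03-fold and PCNA, the sliding clamp of DNA replication, 2.0-fold. TIGAR, a regulator of glycolysis, and ASCC3, a DNA helicase, both rose 2.71-fold. MDM2, the ubiquitin ligase that degrades p53, had a log2 change of 0.84 in which all 7 day 7 arrays lay above all pre-irradiation arrays, but it was not called by this brightest probe (limma adjusted p = 0.0193). Its other probe was called, with a log2 change of 1.28 (limma adjusted p = 0.00305). BAX, a promoter of apoptosis, had a log2 change of 0.23 (limma adjusted p = 0.726) and GADD45A, a growth arrest gene, one of −1.06 (limma adjusted p = 0.0283). The normexp background left 4 called genes of the list, without CDKN1A (limma adjusted p = 0.0618) and TNFRSF10B (limma adjusted p = 0.0521).

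**Figure D3:**
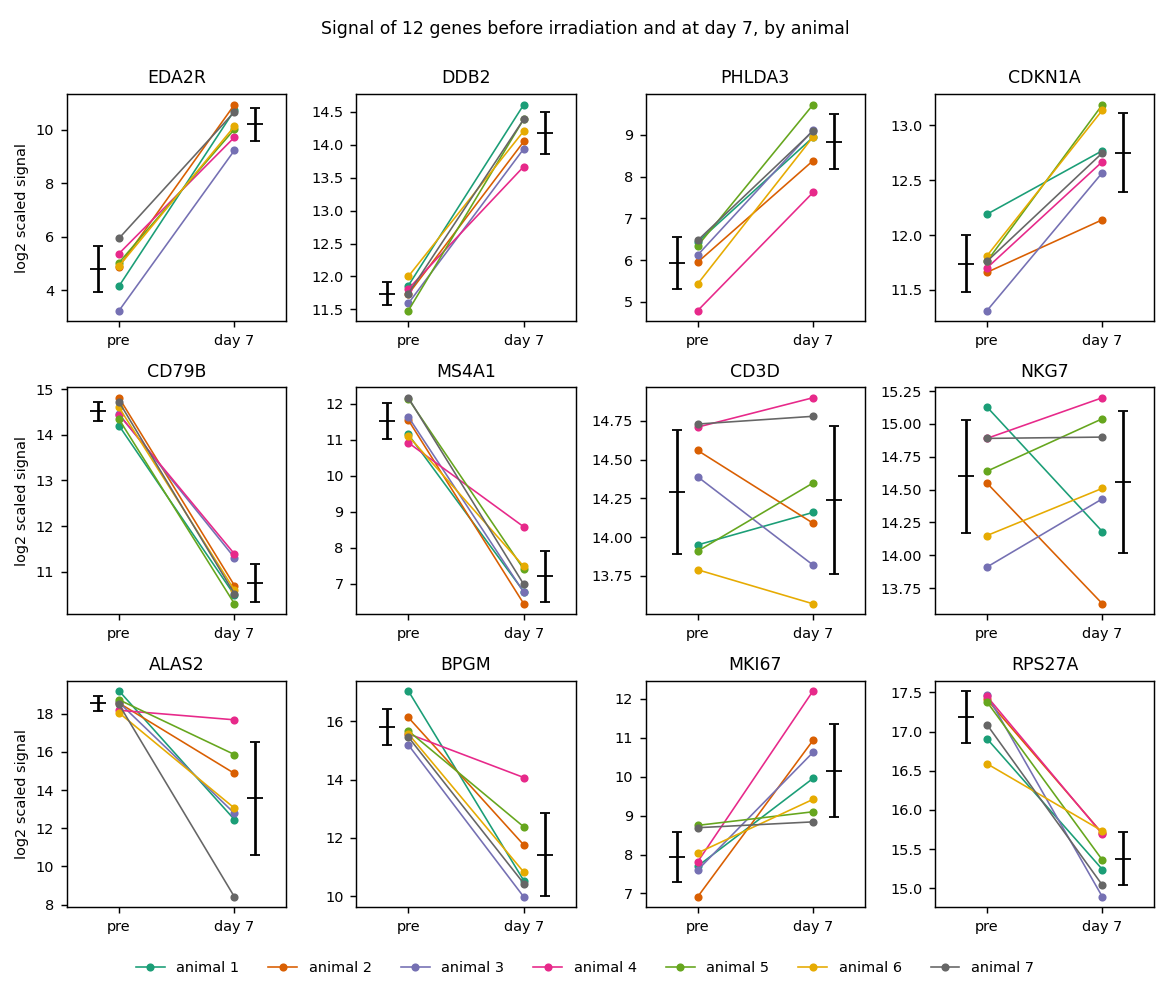
Log2 scaled signal of 12 genes before irradiation and at day 7, with a line for each of the 7 animals and the mean ± SD of each group beside the points. EDA2R, DDB2 and PHLDA3 lie higher at day 7 in every animal, CD79B and MS4A1 lower in every animal, CD3D and NKG7 cross, and ALAS2 spreads from 339 to 210312 signal units at day 7.

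The genes of double-strand break repair showed no common direction. Of 23 tested, 2 rose and 1 fell (13% called, against 9.89% of all genes), with a median log2 change of −0.03 that turned to 0.12 under quantile normalization. NBN, a subunit of the MRE11 complex that senses breaks, fell 6.16-fold, from 6564 to 12886 before irradiation to 842 to 2630 at day 7 (log2 −2.62 ± 0.24, limma adjusted p = 5.71e-06), with no overlap. The kinase gene ATR rose 1.58-fold and MDC1, a mediator of the break response, 1.87-fold, while the other MDC1 probe had a log2 change of −0.08. Neither rise kept its call with the animal as a block (limma adjusted p = 0.0163 and 0.00665). Both also lost it without animal 1, 3, 5 or 7, ATR in addition without animal 4 or 6 and MDC1 without animal 2 (limma adjusted p = 0.00525 to 0.0209 for ATR and 0.00566 to 0.0139 for MDC1). ATM, the kinase that signals breaks, had a log2 change of −0.58 (limma adjusted p = 0.108).

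Most B-cell genes fell, with list medians from −3.60 to −2.50 in the 7 animals. Of 21 tested, 16 fell (76.2%, against 7.26% of all genes) and none rose, with a median log2 change of −2.78. In 15 of them all 7 day 7 arrays lay below all pre-irradiation arrays, as in 658 of all 11011 genes. CD79B, a signaling chain of the B-cell receptor, ran from 18816 to 28724 before irradiation (median 22401) and from 1260 to 2678 at day 7 (median 1547). The wide gap gave a 13.4-fold fall with a small error (log2 −3.75 ± 0.19, limma adjusted p = 2.67e-08). Its partner chain CD79A fell 12.8-fold.

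MS4A1, the B-cell surface protein CD20, ran from 1932 to 4594 before irradiation and from 87.0 to 384 at day 7. It fell 20-fold without overlap (limma adjusted p = 7.63e-07). FCRLA, an Fc receptor-like protein, fell 25.1-fold. VPREB3, a pre-B-cell receptor component, fell at least 15.8-fold and the B-cell surface gene CD72 at least 13.1-fold, since no day 7 array was well above background for either. FCRL1 fell by a fitted 17.7-fold, with 4 of 7 day 7 arrays well above background and the smallest p of the list (limma adjusted p = 4.13e-09). EBF1, a transcription factor of B-cell fate, fell by a fitted 11.1-fold with 3 of 7 day 7 arrays well above background. The adaptor gene BLNK fell 5.79-fold, the chemokine receptor gene CXCR5 5.57-fold and the scaffold gene BANK1 4.81-fold. The summed log2 level of 5 B-cell markers ran from 14.74 to 15.25 before irradiation and from 11.09 to 11.96 at day 7. The normexp background left 10 called genes of the list and a median of −1.79.

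MHC class II genes, which B cells and monocytes both use to present antigen, moved less. Of 12 tested, 2 fell (16.7%, against 7.26% of all genes), MAMU-DOB 5.76-fold (limma adjusted p = 5.7e-05) and MAMU-DOA 5.17-fold. The MAMU-DOA call was lost without animal 3, 4 or 5 (limma adjusted p = 0.00521 to 0.00754), and neither gene was called with the normexp background (limma adjusted p = 0.0104 for MAMU-DOB and 0.168 for MAMU-DOA). The products of both genes regulate peptide loading in B cells. MAMU-DRA, a chain of the main presenting molecule, had a log2 change of −0.95 (limma adjusted p = 0.212), ranging from 2140 to 45687 at day 7 against 12321 to 29664 before. CD74, the invariant chain, had one of −0.62 (limma adjusted p = 0.269).

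T-cell and NK-cell genes gave no call in the main comparison. Each array was shifted to the median array, so these levels are relative to the other RNA on the array. They do not measure the number of cells in blood. The paper reports that lymphocyte counts dropped steeply after irradiation, so the lack of a call does not show that T or NK cells were spared. Of 25 T-cell genes tested by limma none was called, 8 had an unadjusted p under 0.05 (5 higher, 3 lower) where 10709 of all 27132 probes had one, and the median log2 change was 0.06. CD3D, a chain of the T-cell receptor complex, ran from 14134 to 27092 before irradiation and from 12156 to 30563 at day 7, with full overlap (log2 −0.06 ± 0.23). CCR7, the homing receptor of naive T cells, had a log2 change of −1.25 (limma adjusted p = 0.0103) and IL7R, the interleukin-7 receptor, one of −0.73 (limma adjusted p = 0.0111). Without day 7 replicate 2, 1 gene of the list was called, and with quantile normalization 1 as well. The list median was 0.32 with quantile normalization.

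Of 23 NK and cytotoxic genes none was called by limma, 4 had an unadjusted p under 0.05, and the median log2 change was −0.03. That median turned to 0.26 under quantile normalization, which called 4 genes. NKG7, a cytotoxic granule membrane protein, ran from 15445 to 35888 before irradiation and from 12668 to 37534 at day 7 (log2 −0.04 ± 0.26). IL2RB, a chain of the interleukin-2 and interleukin-15 receptors, had a log2 change of 1.43 (limma adjusted p = 0.0108). The summed T-cell markers ran from 15.7 to 16.29 before irradiation and from 15.67 to 16.66 at day 7 on the log2 scale, and the NK-cell markers from 17.3 to 18.38 and from 17.62 to 18.83.

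Most red cell genes fell. Of 28 erythroid and red cell membrane genes tested, 24 fell (85.7%, against 7.26% of all genes) and none rose, with a median log2 change of −3.14. The animals differed widely, from −5.12 in animal 1 to −0.80 in animal 4. BPGM, which makes the oxygen-affinity regulator 2,3-bisphosphoglycerate, ran from 37372 to 134675 before irradiation (median 48789) and from 1007 to 17190 at day 7 (median 1823). It fell 20.7-fold without overlap (log2 −4.37 ± 0.53, limma adjusted p = 4.85e-05).

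AHSP, the chaperone of free alpha-globin, fell 36.6-fold. The erythroid transcription factors KLF1, GATA1 and TAL1 fell 46.1-fold, 3.59-fold and 4.12-fold, KLF1 with 5 of 7 day 7 arrays well above background. SLC4A1, the anion exchanger band 3, fell by a fitted 27.4-fold, with 2 of 7 day 7 arrays well above background. BCL2L1, a survival gene of the BCL2 family, fell 7.90-fold and TRIM58, a ubiquitin ligase of late erythroblasts, 25-fold. The summed log2 level of 5 red cell markers ran from 19.55 to 20.68 before irradiation and from 12.45 to 19.07 at day 7. The normexp background left 14 called genes of the list and a median of −2.02.

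ALAS2, the enzyme that starts heme synthesis in red cell precursors and a member of both the erythroid and the heme list, showed the spread between animals most clearly. Its signal was 272067 to 602924 before irradiation, and at day 7 it was 210312 in animal 4, 59437 in animal 5 and 339 in animal 7. No day 7 array reached the pre-irradiation range. The fall was 31.1-fold (log2 −4.96 ± 1.01, limma adjusted p = 0.00229), and the call was lost without animal 1, 2, 3 or 6 (limma adjusted p = 0.00719 to 0.0133), with the slide as a block (limma adjusted p = 0.00559) and with quantile normalization (limma adjusted p = 0.00639).

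Heme and iron genes fell in part. Of 19 tested, 9 fell (47.4%, against 7.26% of all genes) and none rose, with a median log2 change of −0.72, and the normexp background left 5. The iron-sulfur cluster genes ISCA1 and GLRX5 fell 36.2-fold and 21.1-fold. SLC25A38, the mitochondrial glycine carrier, fell 5.23-fold. TFR2, a transferrin receptor, fell by a fitted 15.9-fold, with 3 of 7 day 7 arrays well above background, and FTL, the ferritin light chain, 4.25-fold, from 230831 to 523479 before irradiation to 55975 to 135484 at day 7. ALAD, the second enzyme of the pathway, had a log2 change of −0.56 (limma adjusted p = 0.162).

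Hemoglobin chains were measured after the submitters had depleted globin transcripts with a kit for human blood, so their levels are those left after depletion. Of 6 tested, 3 fell (50%, against 7.26% of all genes), HBM, HBQ1 (11-fold, limma adjusted p = 2.6e-05) and HBB. HBB, the beta chain, ran from 393688 to 943443 before irradiation, where its spots were saturated on 5 of 7 arrays, and from 3527 to 323057 at day 7. The fitted fold, 12.4, rests on those saturated spots. The fall was called (limma adjusted p = 0.00384) and lost its call with the animal as a block (limma adjusted p = 0.00683), with the slide as a block (limma adjusted p = 0.00601), with quantile normalization (limma adjusted p = 0.0118) and without animal 1, 2, 3, 6 or 7 (limma adjusted p = 0.00737 to 0.0197). HBA1, an alpha chain whose near-identical copy HBA2 may share its probe, had a log2 change of −2.62 without overlap but was not called (limma adjusted p = 0.00685). HBG2, a fetal gamma chain, had a log2 change of −2.67 (limma adjusted p = 0.144).

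Part of the genes of cell division rose. Of 51 mitosis genes tested, 8 rose (15.7%, against 2.63% of all genes) and none fell, with a median log2 change of 1.09. The list median was above 0 in all 7 animals, at 3.13 in animal 4 and between 0.22 and 1.65 in the others. MKI67, a marker of dividing cells, had signals of 120 to 431 before irradiation (median 224) and 457 to 4738 at day 7 (median 996). The groups did not overlap, but the lowest day 7 array was close to the highest pre-irradiation array. The rise was 4.69-fold (log2 2.23 ± 0.47, limma adjusted p = 0.00275) and was lost with the animal as a block (limma adjusted p = 0.0115) and without animal 1, 2, 3, 4 or 6 (limma adjusted p = 0.00529 to 0.0147). It was also lost without day 7 replicate 2 (limma adjusted p = 0.00632).

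PLK1, a mitotic kinase, rose 3.25-fold, TOP2A, a topoisomerase of mitotic chromosomes, 3.14-fold, and MELK, a kinase of dividing cells, 3.15-fold, all without overlap. CDC25C, the phosphatase that starts mitosis, rose at least 1.06-fold and was above background on 4 of 7 day 7 arrays. It was bright enough to be tested through arrays after irradiation alone, so setting the list's share of rises beside all genes is a description only. FOXM1, the transcription factor of mitotic genes, rose 3.64-fold, a call lost without animal 1, 2 or 3 (limma adjusted p = 0.00771 to 0.0127) and with the animal as a block (limma adjusted p = 0.00588). CDK1, the main mitotic kinase, had a log2 change of 0.29 (limma adjusted p = 0.662). The count of called mitosis genes was 2, 3, 3, 6, 5, 9 and 6 without animals 1 to 7 in turn, 6 without day 7 replicate 2, 5 with the animal as a block, 5 with the slide as a block and 1 with the normexp background. It was 12 with the 75th percentile scaling and 19 with probes of any brightness tested.

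Of 49 genes of DNA replication and S phase, 13 rose and 1 fell (28.6% called, against 9.89% of all genes), with a median log2 change of 0.76, and the list median was 1.95 in animal 4 and 0.36 to 0.92 in the others. TYMS, which makes thymidylate, ran from 559 to 878 before irradiation and from 1419 to 5582 at day 7. It rose 3.78-fold without overlap (log2 1.92 ± 0.24, limma adjusted p = 6.09e-05). UHRF1, which maintains DNA methylation at the fork, rose 5.04-fold and CDT1, a licensing factor, 3.5-fold. CCNE2, an S-phase cyclin, rose at least 2.53-fold, with no pre-irradiation array and 6 of 7 day 7 arrays well above background. CCNE2 could be tested through arrays after irradiation alone, so setting the 28.6% beside all genes is a description only. MCM4, a subunit of the replicative helicase, rose 2.66-fold, a call lost with the animal as a block (limma adjusted p = 0.00823), without day 7 replicate 2 (limma adjusted p = 0.00582) and without any animal but 4 (limma adjusted p = 0.00617 to 0.0165). POLD1, the catalytic subunit of DNA polymerase delta, was the fall. It went down 9.43-fold by its brightest probe, while its other probe had a log2 change of 0.23. The list held 7, 7, 8, 10, 10, 11 and 9 called genes without animals 1 to 7 in turn, 8 with the animal as a block and 3 with the normexp background.

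Most genes of the cytoplasmic ribosome fell. Of 73 ribosomal protein genes tested, 63 fell (86.3%, against 7.26% of all genes) and none rose, with a median log2 change of −1.18, gene changes between −2.61 and −0.47 and animal medians between −1.56 and −0.77. All day 7 arrays lay below all pre-irradiation arrays in 60 of the 73, as in 658 of all 11011 genes. RPS27A, a ubiquitin fusion protein of the small subunit, ran from 98931 to 181080 before irradiation (median 170443) and from 30408 to 54492 at day 7 (median 41920), a 3.5-fold fall (limma adjusted p = 1.65e-05). RPLP1, a protein of the large subunit stalk, fell 3.45-fold, and RPL41, also of the large subunit, 3.25-fold.

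The number of ribosomal genes called depended on scaling, background and filter. Quantile normalization called 14 of the 73 and gave a median of −0.53, and the normexp background called 2 with a median of −1.02. The 75th percentile called 61 with a median of −1.10. The direction of the median did not turn under any of them. With probes of any brightness tested, 29 were called.

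Other genes of protein synthesis moved less. Of 30 translation factors, 8 fell (26.7%, against 7.26% of all genes) and none rose. The median log2 change was −0.43, and −0.15 with quantile normalization and −0.24 with the normexp background. EEF2, the elongation factor that moves the ribosome along, fell 4.66-fold, from 42605 to 71983 before irradiation to 7688 to 19949 at day 7, without overlap (limma adjusted p = 8.44e-06). The initiation factor gene EIF3K fell 2.12-fold, a call lost with quantile normalization (limma adjusted p = 0.144), which left 2 called genes of the list. The count was 4 with the animal as a block, and 5 without animal 1, 2 or 5. Of 30 nucleolar genes of rRNA processing, 2 fell and 1 rose (10% called, near the 9.89% of all genes), with a median of −0.18. PES1, a large subunit assembly factor, fell 3.93-fold. FBL, the methyltransferase fibrillarin, fell 1.99-fold, a call lost without animal 1, 2, 3, 5 or 7 (limma adjusted p = 0.00818 to 0.0113) and with the animal as a block (limma adjusted p = 0.00915). The assembly factor RRP12 rose 2.89-fold, a call lost without those same animals (limma adjusted p = 0.00531 to 0.00843). Of 57 mitochondrial ribosomal protein genes 3 fell (5.26%, below the 7.26% of all genes), MRPL12, MRPL53 and MRPL48, with a median of −0.33. MRPL53 fell 1.87-fold and kept its call without each animal, but not with quantile normalization (limma adjusted p = 0.00644), the normexp background (limma adjusted p = 0.18) or probes of any brightness tested (limma adjusted p = 0.0285). MRPL12 lost its call without animal 1, 2, 5, 6 or 7 and MRPL48 without any animal but 4, which left 1 called gene without animal 1, 2, 5, 6 or 7. The MRPL48 call was also lost with the animal as a block (limma adjusted p = 0.015).

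Genes of oxidative phosphorylation fell in part. Of 62 subunit genes tested, 13 fell (21%, against 7.26% of all genes) and none rose. The median log2 change was −0.44, and −0.17 with quantile normalization and −0.27 with the normexp background. COX7B, a subunit of cytochrome c oxidase, fell 4.06-fold, from 3130 to 9388 before irradiation to 857 to 2351 at day 7 (limma adjusted p = 9.56e-05). ATP5F1E, the epsilon subunit of ATP synthase, fell 3.12-fold and SDHC, a membrane anchor of succinate dehydrogenase, 3.04-fold. The count fell to 5 with quantile normalization, 5 without animal 1, 5 without animal 7, 8 without animal 2, 8 with the animal as a block and 1 with the normexp background.

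A few monocyte genes rose. Of 24 monocyte genes tested, 3 rose (12.5%, against 2.63% of all genes) and none fell, with a median log2 change of 0.79. ITGAM, the integrin CD11b, ran from 152 to 365 before irradiation and from 322 to 1595 at day 7, a 3.22-fold rise in which 6 of 7 day 7 arrays lay above all pre-irradiation arrays. S100A8, a subunit of calprotectin, rose 2.55-fold. Both calls were lost without animal 1, 2 or 3, and that of S100A8 also with the animal as a block (limma adjusted p = 0.0054). The list held no called gene without animal 1 or 3, 1 without animal 5, 2 without animal 2, 6 or 7, and 5 without animal 4. It held 4 without day 7 replicate 2, 7 with quantile normalization, none with the normexp background and 1 with the animal as a block. The adjusted p without 1 animal reached 0.00688 for ITGAM and 0.00989 for S100A8. CD14, the defining monocyte surface gene, had a log2 change of 0.03 (limma adjusted p = 0.956), and the summed monocyte markers ran from 15.87 to 16.84 before irradiation and from 15.84 to 16.72 at day 7.

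Of 19 tissue macrophage and scavenger genes 2 rose (10.5%), LYVE1 and MRC1. Both were bright enough to be tested through arrays after irradiation alone, so their number is not read against the 2.63% of all genes. LYVE1, a hyaluronan receptor of lymphatic vessels and macrophages, rose at least 2.58-fold, from 7.39 to 24.7 before irradiation to 32.6 to 624 at day 7 (limma adjusted p = 0.00054). MRC1, the mannose receptor CD206, rose at least 4.42-fold (limma adjusted p = 0.000264). Both were above background on all 7 day 7 arrays and on none before irradiation, and neither was called with the normexp background (limma adjusted p = 0.293 and 0.108). With the animal as a block 4 genes of the list were called. CD163, the hemoglobin scavenger receptor, had a log2 change of 0.87 (limma adjusted p = 0.0149), called without animal 4 (limma adjusted p = 0.00341).

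Some neutrophil granule genes changed. Of 13 primary granule genes 4 fell (30.8%, against 7.26% of all genes) and none rose, while the list median was −0.04 and 0.08 under quantile normalization. DEFA4, a defensin, fell 12.9-fold, from 302 to 4030 before irradiation to 15.3 to 450 at day 7 (limma adjusted p = 0.00152), and lost its call without animal 2 or 6 (limma adjusted p = 0.00679 and 0.00697). The granule protease genes CTSG and ELANE fell by a fitted 5.95-fold and 5.26-fold, with 5 and 3 pre-irradiation arrays and 1 day 7 array each well above background. The CTSG call was lost without animal 1, 2, 4, 6 or 7 (limma adjusted p = 0.00696 to 0.00991). The ELANE call was lost without any animal but 5 (limma adjusted p = 0.00544 to 0.023) and without day 7 replicate 2 (limma adjusted p = 0.00617). MS4A3, a membrane protein of granulocyte precursors and the remaining call, was well above background on no array of either group and entered the test only through arrays of the other days. Without it 3 genes of the list were called. Its call was lost without animal 1, 3, 4, 5 or 7 (limma adjusted p = 0.0116 to 0.0169). MPO, the peroxidase of the same granules, had a log2 change of 0.11 (limma adjusted p = 0.898). The list held 1 called gene without animal 1, 4, 6 or 7, 2 without animal 2 or 3, 2 with the 75th percentile scaling, 1 with probes of any brightness tested and none with the normexp background.

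LCN2 was the only call of 13 secondary and tertiary granule genes in the main comparison (7.69%, against 9.89% of all genes), and 3 were called with the animal as a block or without animal 6, and 2 without animal 2, 4 or 7, and none with the normexp background. MMP8, the neutrophil collagenase, had a log2 change of 3.56 and was not called (limma adjusted p = 0.00642), and LTF, lactoferrin, one of −1.09 (limma adjusted p = 0.206). Of 17 mature neutrophil genes 2 rose and 1 fell (17.6% called, against 9.89% of all genes). S100A12, a calcium-binding alarm protein, ran from 118 to 366 before irradiation and from 586 to 5530 at day 7, a 6.27-fold rise without overlap (limma adjusted p = 0.000599). The potassium channel gene KCNJ15 rose 3.61-fold, a call lost without animal 1, 2, 4, 5 or 7 (limma adjusted p = 0.00546 to 0.0159). PADI2, a peptidylarginine deiminase, fell 2.37-fold, a call lost without each animal in turn (limma adjusted p = 0.00568 to 0.023). The list held 5 called genes with the animal as a block, 1 without animal 1, 2, 5 or 7 and none with the normexp background. The receptors CXCR1 and CXCR2 had log2 changes of 0.43 and −0.05 and were not called.

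Of 15 basophil and eosinophil genes 2 fell (13.3%, against 7.26% of all genes) and none rose. The median log2 change was −1.09, and −0.38 with the normexp background. PRG3, an eosinophil granule protein, fell 5.09-fold, from 19888 to 64172 before irradiation to 4435 to 10567 at day 7, without overlap (limma adjusted p = 3.79e-05). FCER1A, a chain of the IgE receptor, fell 5.65-fold without overlap (limma adjusted p = 0.00348), a call lost without day 7 replicate 2 (limma adjusted p = 0.00727), without animal 1, 2, 4, 5 or 7 (limma adjusted p = 0.00794 to 0.0156) and with the slide as a block (limma adjusted p = 0.00942). CPA3, a mast cell and basophil protease, had a log2 change of −2.48 (limma adjusted p = 0.00754) and was called with the animal as a block (limma adjusted p = 0.000549), where 4 genes of the list were called. Its other probe was called in the main comparison, with a log2 change of −2.17 (limma adjusted p = 0.00307).

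Of 24 platelet genes the only call (4.17%, below the 9.89% of all genes) was TAL1, a transcription factor that erythroid cells share. The platelet chemokine genes PF4 and PPBP had log2 changes of −0.61 (limma adjusted p = 0.26) and 0.05 (limma adjusted p = 0.934). Of 12 hematopoietic progenitor genes 2 fell and 1 rose (25% called, against 9.89% of all genes), and none was called with the normexp background. ANGPT1, the Tie2 ligand angiopoietin 1, fell 4.73-fold without overlap (limma adjusted p = 2e-05) and TESPA1, which acts in T-cell receptor signaling, 2.88-fold. CDK6, a cell cycle kinase, rose 2.27-fold by its brightest probe, a call lost with the animal as a block (limma adjusted p = 0.00758) and without animal 1, 2, 6 or 7 (limma adjusted p = 0.00722 to 0.00963). Its other probe was also called, with a log2 change of 1.88 (limma adjusted p = 1.32e-05).

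Cytokine signaling genes gave 6 rises and no fall among 55 tested (10.9%, against 2.63% of all genes), with a median log2 change of 0.39. IL18RAP ran from 284 to 780 before irradiation (median 528) and from 896 to 12915 at day 7 (median 3656), with no overlap (log2 2.85 ± 0.44, limma adjusted p = 0.000331). Its partner IL18R1 rose at least 1.23-fold and was above background on 3 of 7 day 7 arrays, a call lost without animal 2 (limma adjusted p = 0.00507). IL18R1 was bright enough to be tested through arrays after irradiation alone, so setting the 10.9% beside all genes is a description only. IL12RB1, a receptor chain for interleukins 12 and 23, rose 2.36-fold, and CISH, a feedback inhibitor of cytokine signaling, 2.62-fold. The CISH call was lost without animal 1, 2, 5 or 7 (limma adjusted p = 0.0069 to 0.00849). IL1R1, the interleukin-1 receptor, rose 2.84-fold, a call lost with the animal as a block (limma adjusted p = 0.00904), without day 7 replicate 2 (limma adjusted p = 0.00913) and without animal 1, 2, 3, 5 or 7 (limma adjusted p = 0.0104 to 0.0215). The kinase gene JAK1 rose 2.14-fold. The list held 10 calls with quantile normalization, 2 without animal 2, 3 without animal 5 or 7 and 1 with the normexp background.

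Of 40 interferon-stimulated genes none was called by limma on its brightest probe, and 12 had an unadjusted p under 0.05. The median log2 change was 0.46, and without animal 3 or with the slide as a block 1 gene was called. IFIT1, an interferon-induced RNA-binding protein, had a log2 change of −1.25 by its brightest probe (limma adjusted p = 0.0376). Of its other probes 1 was called, with a log2 change of −4.97 (limma adjusted p = 0.000505), and 1 was not (−1.08). MX1, an antiviral GTPase, had a log2 change of 0.46 (limma adjusted p = 0.534). Of 21 complement and plasma protein genes 1 fell (4.76%, below the 7.26% of all genes) and none rose. The median log2 change was 0.74, and 0.28 with the normexp background. The list median was above 0 in 6 of 7 animals. By unadjusted p under 0.05, 6 were higher and 4 lower. C5AR1, the receptor of the complement fragment C5a, fell 3.97-fold without overlap (limma adjusted p = 2e-05).

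Of 21 glycolysis genes 3 rose and 3 fell (28.6% called, against 9.89% of all genes). HK3 ran from 544 to 1580 before irradiation and from 1987 to 10452 at day 7, without overlap (limma adjusted p = 7.47e-05), and PKM, pyruvate kinase, rose 2.50-fold, also without overlap. PFKFB4, which makes a regulator of phosphofructokinase, rose 3.85-fold, with 1 pre-irradiation and 5 day 7 arrays above background. Its call was lost with the animal as a block (limma adjusted p = 0.00777), without day 7 replicate 2 (limma adjusted p = 0.0053) and without animal 1, 2, 3, 5 or 7 (limma adjusted p = 0.00643 to 0.0149). The falls were in the muscle isoform gene PFKM (1.88-fold), in BPGM and in SLC2A1, the glucose transporter of red cells, which fell by a fitted 7.40-fold, with 1 of 7 day 7 arrays well above background. The latter pair is also in the erythroid list. Quantile normalization called 10 genes of the list and the normexp background 2. HK1 and HK2, the other hexokinases tested, had log2 changes of 0.38 and 0.39 and were not called.

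**Figure D4:**
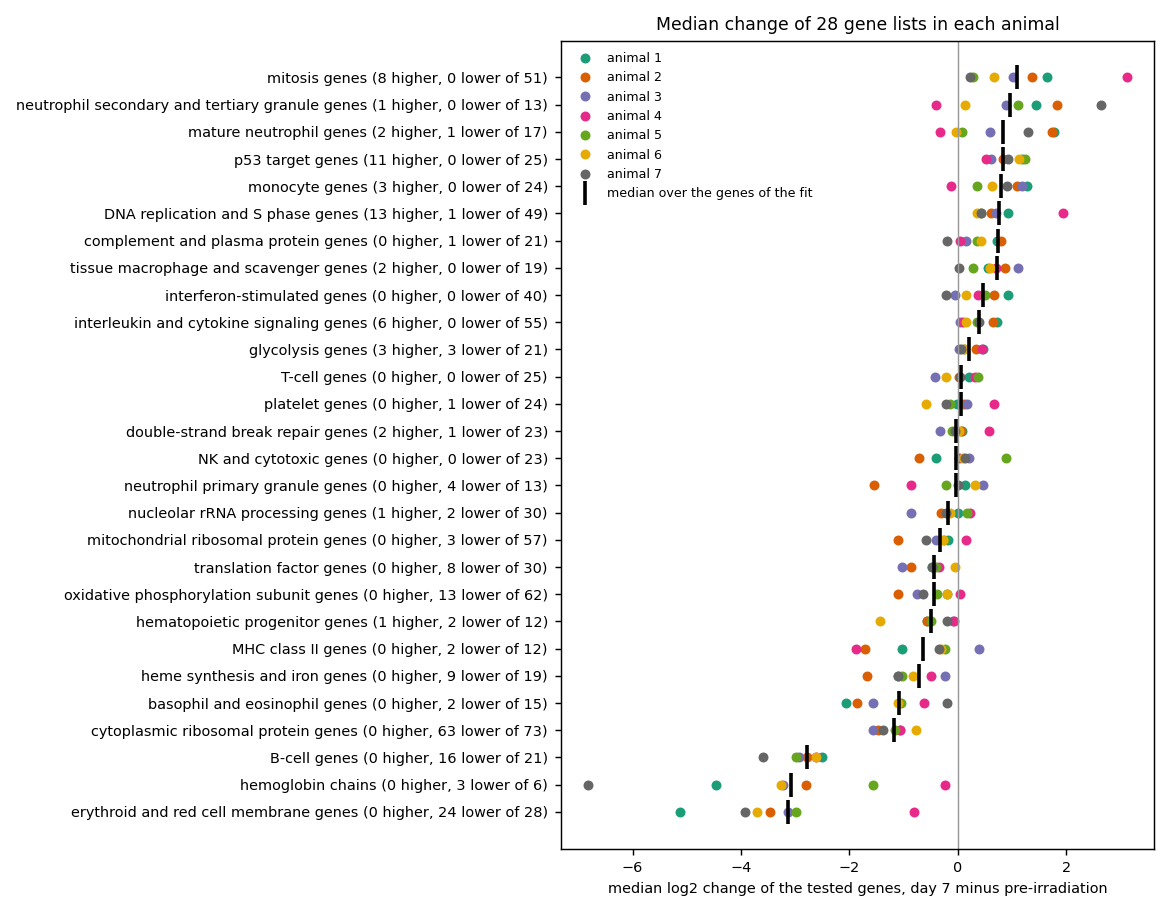
Median log2 change of the tested genes of 28 gene lists, day 7 minus pre-irradiation, for each of the 7 animals as coloured points, with the median of the limma changes as a black bar. B-cell, erythroid and ribosomal protein lists lie below 0 in every animal and the mitosis, DNA replication and p53 target lists above 0 in every animal, while animal 4 stands highest in the erythroid and mitosis lists.

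Animals differed in the size of these changes. The SD of the list median over the 7 animals was 2.1 for hemoglobin chains, 1.31 for erythroid genes, 1.03 for secondary and tertiary granule genes and 1.0 for mitosis genes, against 0.28 for p53 targets and for ribosomal protein genes. Animal 4, a male, had the highest erythroid median (−0.80) and the highest hemoglobin median (−0.23) together with the highest mitosis median (3.13). The 4 males had mitosis medians of 1.65, 1.37, 1.02 and 3.13 and the 3 females 0.29, 0.67 and 0.22, without overlap. The sexes also did not overlap in the DNA replication list, at 0.61 to 1.95 in males and 0.36 to 0.43 in females. The same held for the platelet list, at −0.02 to 0.66 in males and −0.59 to −0.14 in females. With 4 against 3 animals and many lists, such splits can arise by chance, and the split of list medians was not tested. In the test of the difference between the sexes, no probe was called by limma at an adjusted p under 0.05, 2358 probes had an unadjusted p under 0.05, and the smallest adjusted p was 0.302. The probe with the smallest p in that test, singled out after its values were seen, was that of KIFC1, a mitotic kinesin. Its log2 change was 2.01 in males and −0.34 in females. For a probe of MKI67 other than its brightest, also among those with the smallest p, the changes were 3.47 and 0.54 (limma adjusted p of the difference = 0.302).

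Levels at day 3 and day 5, which share the pre-irradiation arrays and were hybridized to 4 and 6 arrays that were all scanned in the second of 2 sessions, are set beside these as a description. Mean log2 levels before irradiation and at days 3, 5 and 7 were 4.79, 9.80, 9.46 and 10.22 for EDA2R. For CDKN1A they were 11.74, 15.14, 13.75 and 12.75. For MS4A1 they were 11.52, 7.76, 7.22 and 7.20, with no higher level at day 7 than at day 5. For ALAS2 they were 18.54, 14.91, 10.48 and 13.58 and for ACSL6 12.51, 7.15, 4.05 and 6.38, so that the day 7 mean stood above that of day 5 in both. MKI67 stood at 7.93 and 7.82 before irradiation and at day 3, then at 9.48 and 10.16. CA4 stood at 7.08, 9.39, 9.39 and 12.09. No test of these orders was made.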

How the data were processed

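Whole blood RNA of 7 macaques, by replicate number, was collected in PAXgene tubes, depleted of globin transcripts by the authors and hybridized in 1 colour to Agilent rhesus arrays. Per the file headers, the deposited intensity values are spot signals with local background subtracted, read by Agilent Feature Extraction (version 10.7 in the submitters' processing notes, another in the headers), and probe positions are on rheMac2. The authors also deposited log2 values normalized to the median array, used here only as an alternative, with 15115 complete rows for the 14 arrays and column medians from 8.08 to 8.22. Their scale and centring were set against the scanner values.

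Control spots and flagged spots were left out, and a probe was kept if 4 or more of the 24 arrays read it well above background. Each array's log2 processed signal was shifted to the median array, and the groups were compared with limma 3.58.1 in R 4.3.3, with Benjamini-Hochberg adjustment over all probes. Called means an adjusted p under 0.005, the study's threshold. A gene was read by its brightest probe. Of 43603 probes 24295 had a symbol, and the other 19308 are not named here. A fold "at least" sets the brighter group against the lowest signal well above background of the dimmer group. Normexp used an offset of 50. The scripts were tested on simulated data.

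Samples were grouped by title. Replicate numbers were taken to pair the samples, because deviations from the group means correlated between arrays of the same number (r from 0.132 to 0.439, best with their own number in 6 of 7). Arrays of the same number also shared a slide, so this check cannot tell animal from slide. Whether a number is one animal's identity thus rests on the bleeding scheme as well. P-values of the main fit, which did not use this pairing, measure the spread of arrays within each group. Named genes were the 12 largest rises and 12 largest falls called without overlap and above background on all brighter arrays, and from each of 28 lists the first 3 tested members and the 4 called members with the largest change. Other list members were added where their role filled out a list, after their values were seen. The members and lists were chosen with earlier results of these data known. Alternatives covered scaling, background, filter, blocks, scan session, slide and left-out animals. Results for a few named genes are not reported here.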

Additional observations from a re-analysis of the deposited data

Results flagged for a closer look

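Some values lay far from the other 6 of their group. The measure is the gap of the highest or lowest value to its nearest neighbour divided by the range of the group, set against Dixon's 95% critical value. That value was passed by 16 of 355 groups tested (4.51%), and chance flags about 1 in 20 groups.

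Day 7 replicate 4 was high for genes of cell division and for a glucose transporter. For CCNB1 (gap share 0.619) its log2 signal was 11.71 against 9.77 to 10.51 in the others. For CDK1 (0.596) it was 11.30 against 7.81 to 9.22, and for E2F8 (0.66) it was 9.66 against 6.57 to 7.62. For SLC2A1 (0.765) it was 6.31 against 3.76 to 4.36. The same array was low for CD163 (0.571), at 13.54 against 14.47 to 15.17. The median log2 change of the DNA replication and S phase genes was high in animal 4 (0.648), at 1.95 against 0.36 to 0.92.

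Pre-irradiation replicate 7 was low for CIITA (0.597), FLT3 (0.749) and MAMU-DRA (0.74), with log2 signals of 5.86, 6.13 and 13.59. LTF was high on day 7 replicate 7 (0.573), at 12.24 against 7.14 to 9.32. Day 7 replicate 3 was low for CISH (0.584) and NDUFA1 (0.644). Before irradiation, ATP9A was low on replicate 2 (0.59), ITGA2B low on replicate 3 (0.613) and MSR1 high on replicate 5 (0.663). The median change of the hematopoietic progenitor genes was low in animal 6 (0.635), at −1.44 against −0.57 to −0.07.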

How the results depend on the processing

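No named gene reversed under any of the alternatives in which it could be tested. Against 2951 called probes (977 higher, 1974 lower), the normexp background called 342 (31 higher, 311 lower), an adjusted p under 0.05 called 7504 (3569 higher, 3935 lower), and testing probes of any brightness called 1825 higher and 947 lower. Scan session 1 alone, which leaves out animal 5, called 645 higher. Leaving out 1 animal gave 1656 to 2577 called probes, 381 to 844 higher and 1273 to 1733 lower. Of 105 called named genes, 70 were called without each animal and 35 lost the call without at least 1. The paired fit with a replicate block called 2326 probes (688 higher, 1638 lower), 2009 of them shared with the unblocked fit. Of the named genes 17 lost their call under the replicate block and CPA3 gained one. Without day 7 replicate 2, an alternative chosen after seeing the data, 2692 probes were called (845 higher, 1847 lower), and of the named genes 11 lost the call and 1 gained it. The causes were not tested. Folds are given as bounds only where no array of the dimmer group was well above background. Where some were, the fitted fold rests in part on signals near background, and the 7 animals a group limit the precision.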
